A study of Mus musculus with 14 samples.

Results

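The 10 genes described here encode central parts of the cellular response to misfolded protein, and their H3K27ac sites were taken from a list pooled over all samples of the study. The genes fell into 2 classes of 5. Hspa1a, Hspa1b, Hspa8, Hsp90aa1 and Hsf1 belong to the cytosolic heat shock system, and Hspa5, Ddit3, Atf4, Xbp1 and Hsp90b1 to the stress response of the endoplasmic reticulum (ER). A site was counted for a gene if it overlapped the gene body in the GENCODE annotation of the mouse genome (GRCm38, mm10) or lay within 10 kb of either end. By this rule 76 of the 122228 H3K27ac sites belonged to the 10 genes, which are among 21755 protein-coding genes. The cytosolic genes had 46 of these sites and the ER genes 30, and 5 of the cytosolic sites counted for both Hspa1a and Hspa1b, which are neighbours on chromosome 17.

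The sites were mapped by chromatin immunoprecipitation followed by sequencing (ChIP-seq) with an antibody to histone H3 acetylated at lysine 27 (H3K27ac), a mark found at active promoters and enhancers. The cells were immortalized mouse embryo fibroblasts (iMEF) in which exon 4 of both endogenous Ash2l alleles had been deleted by Cre-ER and which lived on FKBP-HA2-ASH2L, human ASH2L with an N-terminal FKBP12F36V tag delivered by lentivirus. The tagged protein is degraded when dTAG-13 is added, and control cells carried the same deletion and transgene but received no dTAG. There were 2 H3K27ac libraries each for control cells and for cells after 30 min, 2 h, 4 h, 8 h and 16 h of dTAG, 12 in total, and 1 input library each for control and for 16 h, so that 14 libraries made up the series. The study worked mostly with NG3, which is 1 clone. The list held 1 position per site for all H3K27ac libraries together, with no count, score or sample of origin. No value below therefore has a replicate error, the list does not give the read depth behind a site, and neither time points nor treated and control cells could be compared. As a check of the cell type, 10 of 10 fibroblast marker genes and 0 of 10 markers of other cell types had a site no farther than 1 kb from the transcription start site (TSS).

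Heat shock and other insults that unfold cytosolic protein release the transcription factor HSF1 from its chaperones. HSF1 then binds heat shock elements, inverted repeats of the letters GAA, in promoters of chaperone genes such as Hspa1a and Hspa1b. Misfolded protein in the ER is sensed by the membrane proteins IRE1, PERK and ATF6, a system known as the unfolded protein response (UPR). IRE1 splices the Xbp1 mRNA, PERK favours translation of Atf4 and through it transcription of Ddit3, and ATF6 and XBP1 act on ER stress elements in the promoters of ER chaperone genes such as Hspa5 and Hsp90b1. Many of these chaperones are also made in unstressed, growing cells.

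At 9 of the 10 genes the promoter carried 2 sites with a short gap in or next to the TSS. Such a gap was found at 29.6% of protein-coding genes with a CpG island (CGI), but at 80.2% of protein-coding genes with 2 or more promoter sites, and all 9 members had 2. At Hspa1a, Hspa1b, Hspa5 and Hsp90b1 this gap contained letters known as heat shock, ER stress or UPR elements. Of all promoters of protein-coding genes, 14.5% had the heat shock, 0.106% the ER stress and 1.95% the UPR letters. Hspa1a and Hspa1b share the sequence around their match. The upstream gap stretches of Hspa8, Hsf1 and Ddit3 had no match to these elements. The stretches of the gaps upstream of the TSS are printed for Hspa1a, Hspa1b, Hspa5 and Hsp90b1, because they show which letters lay outside the sites. Each reads 5′ to 3′ in the direction of transcription, and capitals mark the elements. The positions are chr17:34972185-34972346 (minus strand) for Hspa1a, chr17:34959255-34959354 (minus strand) for Hspa1b, chr2:34771816-34771969 (plus strand) for Hspa5 and chr10:86705510-86705766 (minus strand) for Hsp90b1, all in GRCm38.
Hspa1a: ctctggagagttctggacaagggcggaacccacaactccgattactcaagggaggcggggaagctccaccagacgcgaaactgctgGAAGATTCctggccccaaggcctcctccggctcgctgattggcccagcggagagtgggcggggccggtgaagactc
Hspa1b: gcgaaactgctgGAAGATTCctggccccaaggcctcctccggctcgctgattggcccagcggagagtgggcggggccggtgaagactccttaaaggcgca
Hspa5: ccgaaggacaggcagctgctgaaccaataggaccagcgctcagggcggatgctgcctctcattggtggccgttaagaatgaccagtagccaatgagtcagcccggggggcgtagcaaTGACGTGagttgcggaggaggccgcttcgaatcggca
Hsp90b1: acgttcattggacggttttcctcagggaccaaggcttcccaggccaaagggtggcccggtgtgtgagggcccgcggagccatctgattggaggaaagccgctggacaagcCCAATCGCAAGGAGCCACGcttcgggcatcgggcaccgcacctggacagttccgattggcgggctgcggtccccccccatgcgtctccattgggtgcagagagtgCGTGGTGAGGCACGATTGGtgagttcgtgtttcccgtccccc

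All 10 genes had a site in the promoter window, which spanned 1 kb on either side of the principal TSS. This was the case for 52.2% of all protein-coding genes. All 10 genes also had a CGI at the promoter, and among the 11826 protein-coding genes with a CGI the share with a promoter site was 80.7%. The promoter cover, defined as the percentage of the 2001 bases of this window that lay in sites, was at least 50% at all 10 genes, compared to 37.1% of all protein-coding genes and 61.0% of those with a CGI. Among CGI genes that had a promoter site, as all members did, the share was 75.7%. With only 10 genes, which were named with results of these data known, these shares are a description and were not tested.

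The inducible HSP70 genes Hspa1a and Hspa1b had the lowest cover of the 10 genes. Hspa1a (chr17:34969190-34972156, minus strand) had a cover of 55.7%, with 81.1% of the upstream and 30.2% of the downstream kilobase in sites. Hspa1b (chr17:34956436-34959238, minus strand) had a cover of 60.2%, with 90.0% upstream and 30.4% downstream. Both had a narrow site over the TSS that ended shortly into the gene, at position 302 for Hspa1a and 304 for Hspa1b (positions count from the TSS as 0, with upstream positions negative). These TSS sites had widths of 331 and 321 bp. The upstream promoter sites differed in width, at 783 bp for Hspa1a and 4449 bp for Hspa1b. The upstream site of Hspa1a also held the TSS of Hspa1l, an HSP70 gene that starts 547 bp away on the opposite strand.

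The other cytosolic genes were covered more completely. Hspa8 (chr9:40800984-40810087, plus strand) encodes HSC70, the constitutive HSP70, and had a cover of 79.96%. Its sites of 1012 and 1219 bp left the principal TSS in a gap of 401 bp, the longest of the 9 gaps. Of its 9 annotated TSSs 7 lay in a site, all 7 in the downstream site of 1219 bp. Hsp90aa1 (chr12:110690605-110702728, minus strand) encodes the stress-inducible HSP90 and had a cover of 89.1%, the highest of the cytosolic class, with 100% of the downstream kilobase in a site of 1124 bp. A further annotated TSS of this gene, at -6439, lay in a site of its own of 676 bp. Hsf1 (chr15:76477422-76501913, plus strand), the gene of the heat shock transcription factor, had a cover of 86.3% from sites of 697 and 1430 bp. Its upstream site was nearest to the TSS of Bop1, which started 168 bp upstream on the opposite strand.

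Among the ER chaperones, Hspa5 (chr2:34771970-34777547, plus strand), which encodes BiP, had a cover of 71.6% from sites of 594 and 839 bp. Hsp90b1 (chr10:86690209-86705509, minus strand), which encodes GRP94, had a cover of 85.4% from sites of 1133 and 1522 bp. In both genes the principal TSS lay in the gap, which ran from -154 to 115 in Hspa5 and from -257 to 35 in Hsp90b1. For Hsp90b1 none of the 5 annotated TSSs was in a site, and for Hspa5 it was 3 of 6. The placement depended on the annotation, because RefSeq puts the TSS 120 bp further downstream for Hspa5 and 65 bp further downstream for Hsp90b1, and both of these positions were inside the downstream site. The upstream site of Hsp90b1 held the TSS of Ttc41, a coding gene that starts 302 bp away on the opposite strand. Its downstream site, of 1522 bp, held the TSS of Gm25745.

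The transcription factor genes of the UPR had the highest and the lowest cover of the ER class. Atf4 (chr15:80255184-80257541, plus strand), the factor translated after PERK activation, had a cover of 97.4%. It was the only one of the 10 genes with a single promoter site, of 3223 bp, which ran from -948 to 2274 and covered 96.5% of the gene body. Ddit3 (chr10:127290774-127296288, plus strand) encodes CHOP, a pro-apoptotic factor downstream of ATF4, and had a cover of 86.7%. Its sites of 5555 and 2079 bp were separated by a gap of 266 bp that ended 6 bp before the TSS. The wider site also held TSSs of Mbd6 and Gm20492. Xbp1 (chr11:5520659-5525893, plus strand), the target of IRE1 splicing, had the lowest cover of the class with 64.5%, since only 35.8% of its upstream kilobase was in a site. Xbp1 was also the only gene whose gap lay entirely downstream of the TSS, from 203 to 271.

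**Figure D1:**
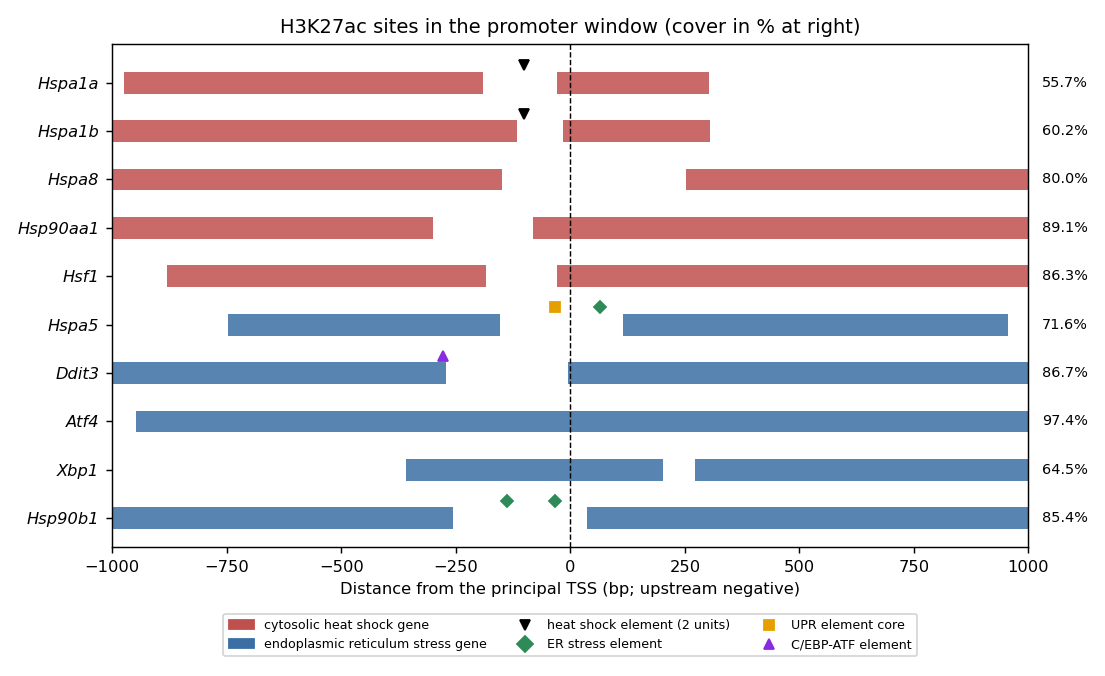
H3K27ac sites in the promoter windows of the 10 genes. The x axis is the distance from the principal TSS in bp, bars are sites of the pooled list (red for cytosolic heat shock genes, blue for ER stress genes), symbols are matches to stress elements and the figures at the right are the promoter cover in percent. At 9 genes a gap separates 2 sites, and the matches at Hspa1a, Hspa1b, Hspa5 and Hsp90b1 are in it, whereas the match at Ddit3 is in a site. Hsp90aa1 was left out of the search for elements.

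The 2 classes were next compared by promoter cover. The cytosolic genes had a median cover of 79.96% (55.7 to 89.1%, n = 5 genes) and the ER genes 85.4% (64.5 to 97.4%, n = 5 genes). The ranges overlapped over most of their length, and the order was not stable. When Hspa1a and Hspa1b were left out, the median of the remaining cytosolic genes was 86.3%, above the 85.4% of the ER genes. Upstream of the TSS the median was 81.1% for the cytosolic and 73.4% for the ER genes, whereas downstream it was 74.8% and 96.5%. A difference between the classes was not tested, since genes of a class are not replicates and each value comes from the same pooled list.

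Both medians were above that of all protein-coding genes (18.6%) and of those with a CGI (60.8%). Compared to the 9541 CGI genes that had a promoter site (median 68.2%, quartiles 50.3 and 83.3%), the members were spread widely. Atf4 was at percentile 93.2 of this set, Hsp90aa1 at 83.6, Ddit3 at 80.3, Hsf1 at 79.5 and Hsp90b1 at 78.2. Hspa8 was at percentile 69.5 and Hspa5 at 55.9, whereas Xbp1 at 43.8, Hspa1b at 37.1 and Hspa1a at 31.5 were below the middle. As another group of protein quality control genes, 48 proteasome genes had a median cover of 58.2%, and 43 of them had a promoter site. They were taken by symbol and are not all subunit genes.

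**Figure D2:**
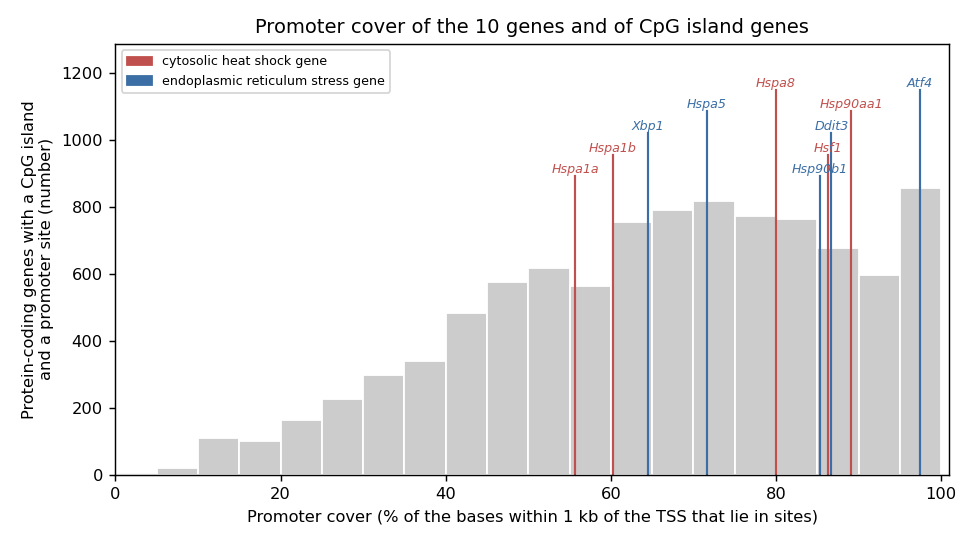
Promoter cover of the 10 genes among CGI genes. The x axis is the promoter cover in percent, grey bars count the 9541 protein-coding genes with a CGI and a promoter site in steps of 5%, and coloured lines mark the 10 genes (red cytosolic, blue ER). The members run from 55.7% at Hspa1a to 97.4% at Atf4, and the colours intermingle.

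The median width of promoter sites was higher at the ER genes. The 9 promoter sites of the ER genes had a median width of 1522 bp (561 to 5555 bp), and the 10 of the cytosolic genes 898 bp (321 to 4449 bp). The median over all promoter sites of protein-coding genes was 851 bp (n = 15197 sites) and of CGI genes 897 bp (n = 12747 sites), so that the cytosolic median was close to that of CGI genes in general. A width of 1000 bp or more was reached by 6 of 9 ER and 5 of 10 cytosolic promoter sites. The share was 41.9% for the promoter sites of all protein-coding genes and 44.3% for those of CGI genes. The widths of the classes overlapped, and the difference rested on few genes. Without Hsf1, Atf4, Xbp1 and Ddit3 the ER median was 986 bp, next to 898 bp for the cytosolic chaperone genes. With a promoter window of 2 kb on either side of the TSS the medians were 839 bp (ER) and 784 bp (cytosolic).

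Sites outside the promoter windows were narrower and showed the opposite order. The median was 420.5 bp for 36 cytosolic and 339 bp for 21 ER sites, on either side of the median of the whole list (401 bp). In this group 8 of 36 cytosolic sites (22.2%) and 1 of 21 ER sites (4.76%), of 1532 bp downstream of Atf4, reached 1000 bp, compared to 15.9% of the whole list. Of the 8 cytosolic sites, 3 held a TSS of a gene outside the 10. Over all sites of a class the medians were 518 bp (n = 46) and 470 bp (n = 30).

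**Figure D3:**
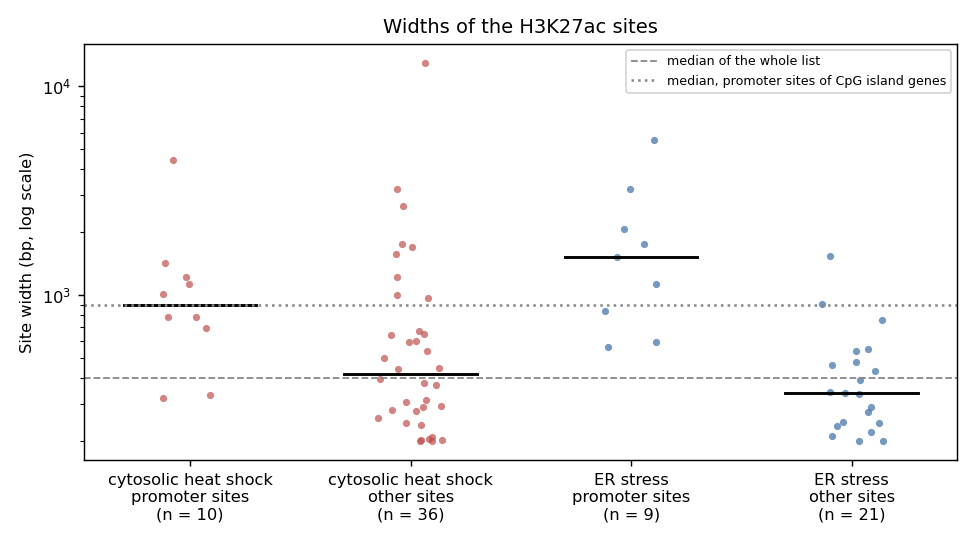
Widths of the 76 sites. The y axis is the site width in bp on a log scale, each point is 1 site, black lines are medians, and grey lines mark the medians of the whole list (401 bp, dashed) and of promoter sites of CGI genes (897 bp, dotted). The promoter sites of the ER genes have a higher median (1522 bp) than those of the cytosolic genes (898 bp), but the points of the classes overlap.

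The gap at the TSS was then examined. A gap between 2 promoter sites within 300 bp of the TSS was present at 9 of 10 members, and 3997 of the 4983 protein-coding genes with 2 or more promoter sites had one (80.2%). The count of the members was thus close to that of other genes with as many promoter sites. The gaps of the members had a median length of 218 bp, compared to 156 bp in the 3997 genes. Lengths were 401 bp in Hspa8, 293 bp in Hsp90b1, 270 bp in Hspa5, 266 bp in Ddit3, 218 bp in Hsp90aa1, 162 bp in Hspa1a, 156 bp in Hsf1, 100 bp in Hspa1b and 69 bp in Xbp1. The principal TSS was itself in a site at 7 of 10 members (70.0%), compared to 60.2% of CGI genes and 74.6% of CGI genes with a promoter site, and in the gap at Hspa8, Hspa5 and Hsp90b1. The list gives no signal, so that a gap is a stretch where no peak was found and may still carry H3K27ac reads.

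Element letters were searched on both strands in the 300 bp upstream of the principal TSS of 9 of the 10 genes, all but Hsp90aa1. Much of this stretch was gap, with 266 bp in Ddit3, 257 bp in Hsp90b1 and 162 bp in Hspa1a. It was 156 bp in Hsf1, 154 bp in Hspa5, 148 bp in Hspa8 and 100 bp in Hspa1b. In Atf4 and Xbp1 the stretch lay wholly in a site. A heat shock element of 2 units, GAANNTTC or TTCNNGAA, was present in 14.5% of the 21755 promoters of protein-coding genes. In Hspa1a and Hspa1b it lay from -104 to -97, within the gap of both genes. Hspa8 and Hsf1 had no match to it in this stretch. The sequence between the principal TSS of Hspa8 and its next annotated TSS, at 292, was not searched.

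The ER stress element, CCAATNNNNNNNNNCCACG, was found in 0.106% of the promoters. In Hsp90b1 it was present at 2 positions, -147 to -129 and -42 to -24, both in the gap. In Hspa5 the 300 bp upstream of the GENCODE TSS had no such match but had the UPR element core TGACGTG from -37 to -31, which 1.95% of promoters contained. In the RefSeq promoters, which reach from 250 bases before to 49 after the RefSeq TSS, the ER stress element was present in 0.119% of 32851 promoters, and these included both Hsp90b1 and Hspa5. The Hspa5 match, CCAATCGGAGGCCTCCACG, lay from -65 to -47 of the RefSeq TSS, which is 55 to 73 in GENCODE positions and thus also in the gap. The RefSeq table had 7 of the 10 members, without Hspa8, Hsp90aa1 and Hsf1.

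Other elements gave a mixed picture. The C/EBP-ATF element, TGATGNAA, a form bound by ATF4, was present in 3.55% of promoters and among the 9 genes in Ddit3, from -282 to -275. Of the stress elements found, this was the only one in a site, near the downstream end of the 5555-bp site. Since much of the searched stretch was gap, matches in the gap were partly set by where the search was made. The second type of ER stress element, ATTGGNCCACG, was present in 0.0644% of promoters and in 0 of the 9 genes. Of general promoter letters, CCAAT was present in 8 of the 9 genes (38.9% of promoters), GGGCGG in 6 (43.2%) and TATAA in 0 (24.7%). In the RefSeq promoters TATAA was present in 2 of the 7 members (24.9% of promoters), from -26 to -22 of the RefSeq TSS in Hspa5 and from 29 to 33 in Ddit3. The ER stress element contains CCAAT, and a match to any of these letters does not show that a factor is bound.

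The low downstream cover of Hspa1a and Hspa1b coincided with sequence that both genes share. Their coding sequences were 98.2% identical, with 34 differences over 1923 bases, and the 300 bp upstream of the TSS were 94.0% identical, with 18 differences. Of the words of 75 bases that lie in the promoter window, 45.5% occurred elsewhere in the genome for each of the 2 genes, compared to at most 1.45% for the other 8 members. In the gene body these shares were 54.2% for Hspa1a and 55.8% for Hspa1b, compared to 13.6% for Hspa8, 13.1% for Hsp90aa1 and at most 1.57% for the others. A read of this length from such a place cannot be assigned to 1 position, and the study sequenced single-end reads with 75 cycles. Unusable reads were filtered as ENCODE recommends, but how reads with several matches were treated was not given in the sources used here.

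In the promoter window of Hspa1a, 17.4% of the starts of copied words were in a site, compared to 87.0% of the starts of unique words. For Hspa1b the shares were 17.8% and 92.9%. A start is here the base with the lowest genome coordinate, which is the 3′ end of the word in these minus-strand genes. A copied stretch from -203 to -3 was present in both genes and enclosed the gap of each, and with it the heat shock element. Further copied stretches, most of them between 126 and 2110, covered most of the coding sequence, where no site began after the TSS site of either gene. Copied sequence was not free of sites. Most of each TSS site lay in copied stretches, namely those from -203 to -3, 26 to 123 and 126 to 385. The next site downstream started at 2697 in Hspa1a and at 5729, beyond the gene end, in Hspa1b. The part of copied sequence in these gaps was not tested. The other 7 gaps were in promoters nearly free of copied words.

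**Figure D4:**
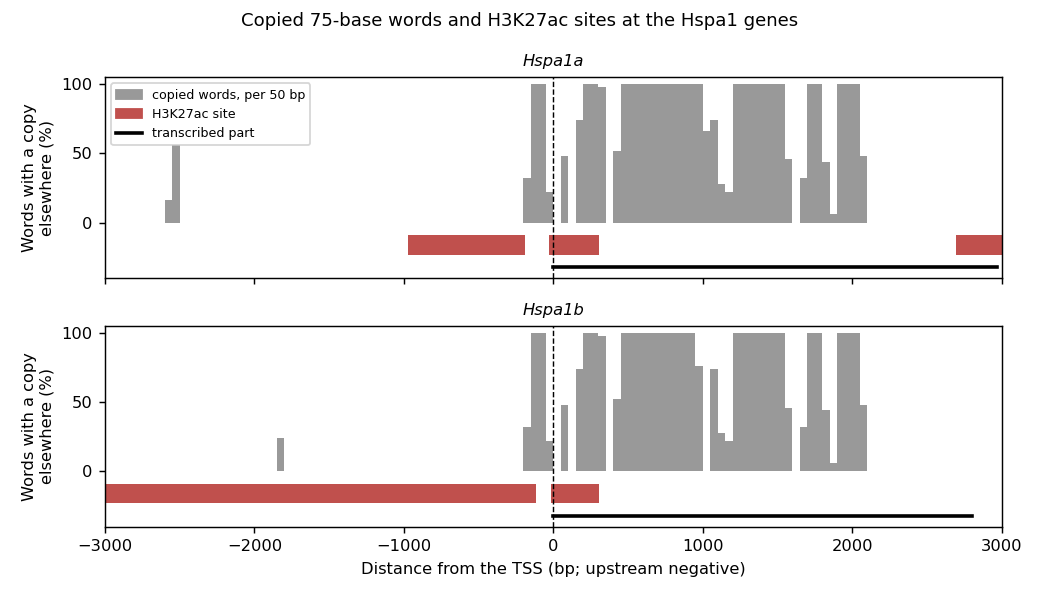
Copied sequence and sites at Hspa1a and Hspa1b. The x axis is the distance from the TSS in bp, red bars are H3K27ac sites and black lines the transcribed part. Grey bars give the percentage of 75-base words with their middle in each 50-bp step that occur elsewhere in the genome. The gap upstream of the TSS and the site-free coding sequence lie where copied words are frequent, and each TSS site also overlaps copied sequence.

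Counts of all sites by the 10 kb rule, promoter sites included, were higher at the cytosolic genes. Hspa8 had 12 sites, Hspa1a 11, Hsp90aa1 10, Hsf1 10 and Hspa1b 8. Ddit3 had 8, Atf4 7, Xbp1 6, Hspa5 5 and Hsp90b1 4. The medians were 10 and 6, compared to 2 for all protein-coding genes and 4 for those with a CGI. For CGI genes with a promoter site the median was 5. For protein-coding genes with 2 or more promoter sites it was 6, the same as for the ER genes. Only Hspa1b and Ddit3 had equal numbers, and otherwise each cytosolic gene had more sites than each ER gene. The counts include sites of neighbours, and the 5 sites shared by Hspa1a and Hspa1b count for each. The TSS nearest to a site, of any annotated gene, belonged to a member for 40 of the 76 sites, and with sites nearest to another gene left out the numbers were 22 for the cytosolic and 18 for the ER class. The order of the genes then turned, with a median of 3 sites per cytosolic and 4 per ER gene. Of the 22 cytosolic sites, Hsp90aa1 had 10 and Hspa8 6. This turn depended on counting TSSs of non-coding genes. By the nearest TSS of a protein-coding gene, 31 cytosolic and 20 ER sites belonged to a member. The counts were then 12 at Hspa8, 10 at Hsp90aa1, 5 at Hspa1b, 3 at Hsf1 and 1 at Hspa1a. For the ER genes they were 6 at Xbp1, 5 at Atf4, 4 at Hspa5, 3 at Ddit3 and 2 at Hsp90b1.

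The loci differed in where these sites lay. Between Hspa1b and Hspa1a, sites of 4449, 2678 and 1706 bp followed each other with gaps of 345 and 215 bp. Hspa8 had 8 sites that touched its gene body, which had 46.2% of its bases in sites and holds small nucleolar RNA genes, whose TSSs were nearest to 6 of the 12 sites. Of the sites of Hsp90aa1, all 10 were nearest to a TSS of the gene itself. In contrast, Hsf1 had no site from 5989 to 33480, although its gene body is the longest of the 10, and 7.63% of its body was in sites. The last of its sites, of 964 bp, held the TSS of Dgat1, and the widest, of 12935 bp, held TSSs of Scx and Bop1 and reached the 10 kb limit only at its edge.

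The ER loci also differed among themselves. Hspa5 had no site downstream of 954 within the interval, and Hsp90b1 none between 1557 and 19400, where the last site of 910 bp held the TSS of 1810014B01Rik. The share of the gene body in sites was 15.0% for Hspa5 and 9.95% for Hsp90b1. Xbp1 had 37.5% and a group of 4 narrow sites from 7287 to 11064, of 335, 200, 291 and 221 bp. Ddit3 had 61.3% of its body in sites. Atf4 was followed by sites of 434 and 1532 bp, and a further site of 759 bp held the TSS of Rps19bp1. The median share of the gene body in sites was 19.3% for the cytosolic and 37.5% for the ER genes. It was 2.22% for all protein-coding genes and 7.48% for CGI genes with a promoter site. The share was not adjusted for gene length, which was 2358 bp for Atf4 (96.5% in sites) and 24492 bp for Hsf1 (7.63%).

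**Figure D5:**
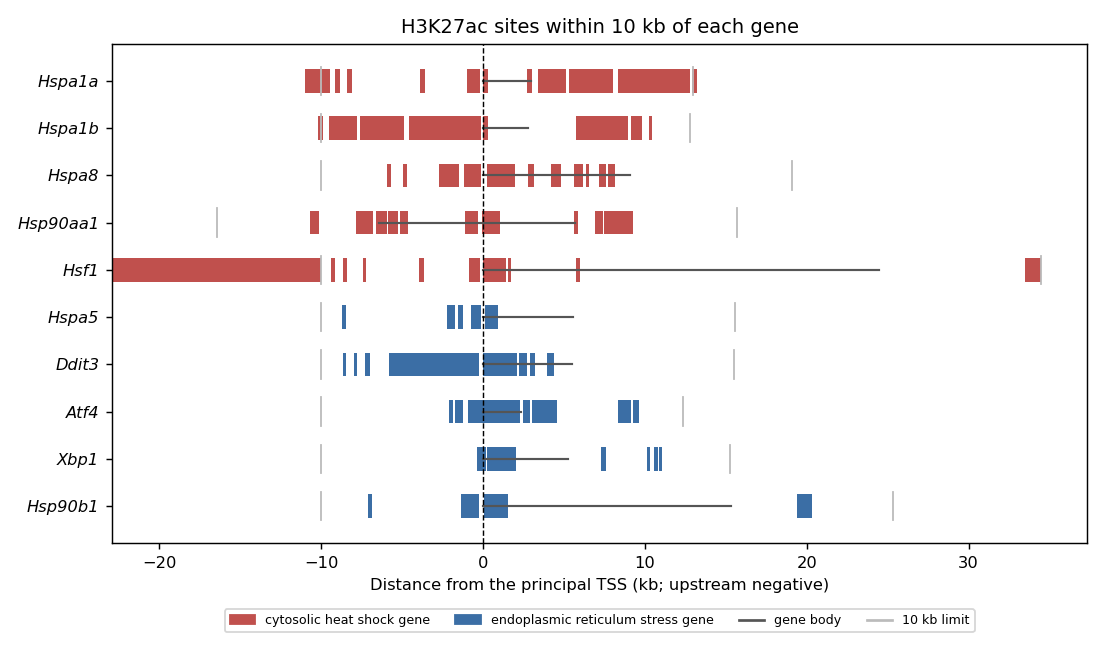
Sites around the 10 genes. The x axis is the distance from the principal TSS in kb, bars are sites (red cytosolic, blue ER), dark lines are gene bodies and light ticks the 10 kb limits. The cytosolic loci hold 8 to 12 sites and the ER loci 4 to 8, and the widest site, of 12935 bp, only touches the limit of Hsf1.

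Of the 76 sites, 38 were more than 1 kb from any annotated TSS, 23 of the 46 cytosolic and 15 of the 30 ER sites. A TSS lay inside 23 sites, and 11 sites overlapped coding sequence of a member. CGIs were overlapped by 23 sites, among them 16 of the 19 promoter sites. The promoter sites had a median GC content of 55.7% and the other 57 sites 49.4%, and repeats made up a median of 6.94% and 11.9% of their bases. The shares of the whole list are not given beside these values, which therefore only describe the 76 sites.

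Wider gene lists of both systems were examined in the same way, and in each the cover ran from 0 to 100%. Of 30 further chaperone and heat shock genes of the cytosol and mitochondria, 29 had a promoter site, and the median cover was 78.4%. The exception was Hspa4l, an HSP110 relative, with 0 sites by the 10 kb rule. Of these genes 5 were fully covered. Among them Hsp90ab1 (constitutive HSP90), Hspa4 and Hspd1 (the mitochondrial chaperonin HSP60) had the most site bases in the promoter window and 10 kb on either side of it. Of 35 further genes of the ER stress response, 34 had a promoter site, with a median cover of 75.1%. A CGI was present at 27 of the 30 and at 34 of the 35 genes. The share with a promoter site was 52.2% for all protein-coding genes and 80.7% for CGI genes. CGI genes with a promoter site had a median cover of 68.2%. Derl3, a component of ER-associated degradation, had 0 promoter sites but 6 sites within its locus. The highest cover was found at Trib3 (100%), a target of ATF4 and CHOP, Herpud1 (97.9%) and Syvn1 (95.9%), both of ER-associated degradation.

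The median cover of the wider lists thus had the order opposite to that of the 10 genes, with the ER list below the cytosolic list. Gaps within 300 bp of the TSS were present at 24 of 35 genes of the wider ER list and at 11 of 30 of the wider cytosolic list. Of the genes with 2 or more promoter sites, these were 24 of 27 and 11 of 13, next to 80.2% of all such protein-coding genes. The median gap lengths were 213 and 154 bp. For the proteasome genes the numbers were 17 of 48 and 128 bp. These differences were not tested.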

How the data were processed

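ChIP-seq was done on 12 H3K27ac and 2 input libraries. Read trimming (Trim Galore), alignment to mm10 (BWA), filtering (SAMtools), merging of replicates (Picard) and narrow peak calling (MACS2) were done by the authors, who then joined the peaks of all samples. They deposited 1 list of genome positions, the only values used here. It had no value per sample, so samples were grouped from their labels for description only. How peaks were joined, thresholds and versions were not given in the sources used here, and joining can make a site wider than in any single sample. Inputs were not analysed here, and the upstream sequence of Hsp90aa1 is not reported here.

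Starts were read as counted from 0 and are printed counted from 1. Genes came from GENCODE M21 (the authors used M25) with sequence of the same build, and RefSeq promoters of GRCm38. The principal TSS was that of the transcript with the best APPRIS tag, then CCDS, then the longest coding length. CGIs were runs of CpG (score 17, other bases -1) of at least 200 bp with a GC content of at least 50% and a CpG ratio of at least 0.6, which gave 16114. Proteasome genes were those with symbols Psma to Psmg and a number. The overlap and CGI procedures were checked on simulated data. Python 3.11.15, numpy 2.4.6, pandas 2.3.3, numba 0.67.0 and matplotlib 3.10.9 were used.

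No test was run, since the list is pooled and genes or sites are not replicates. All 10 genes are named. Of the wider lists, genes with no promoter site and the 3 with the highest cover are named, and other genes only where their TSS is in or next to a described site. The genes and lists were chosen with earlier results of these data known, and the elements searched, the gap and the 75-base word measure were chosen after the list had been seen. The alternatives comprised other windows, TSSs, flanks, site filters and merging, and omission of genes.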

Additional observations from a re-analysis of the deposited data

How the results depend on the processing

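Of 52 values recomputed under 12 alternatives, 41 stayed within 1.5 times the value reported and 11 did not. Some of these outcomes were fixed in advance, so the tally does not measure robustness. The number of members with a promoter site fell because genes were left out, and omission of Hspa1a and Hspa1b could not change ER values. Leaving out sites of 265 bp or less could not change promoter values, since the narrowest promoter site had 321 bp. Counting starts from 1 made each site only 1 bp wider. With a window of 2 kb the median width of ER promoter sites was 839 bp, next to 784 bp for the cytosolic sites. When sites less than 1 kb apart were merged, the median widths were 2627 bp (cytosolic) and 3200 bp (ER), and the numbers of sites fell to 18 and 12. With transcription factor genes left out, the ER width was 986 bp, and the 6 remaining genes all had a promoter site. Within gene bodies alone there were 20 cytosolic and 9 ER sites, and 22 and 18 once sites nearest to the TSS of another gene were left out. Under all 8 alternatives that give it, the ER promoter sites had the higher median width. The median cover was higher for the ER genes in 7 of 8. The exception was the omission of Hspa1a and Hspa1b (86.3% cytosolic, 85.4% ER). Both counts include the filter on narrow sites and the recount of starts, which had little or no room to change the order. No paired analysis was possible because each site had a position only and no sample of origin. The list gave no read depth, which the study planned as a minimum of raw reads per sample, and the peak threshold was not given in the sources used here. Their part in the number, width and spacing of sites was not tested.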
